A study of Mus musculus with 15 samples.

Results

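The genes described here are 9 regulators of nerve cell formation in the developing retina, measured in RNA of whole mouse eyes with their eyelids. They were chosen by symbol: Atoh7, Neurog2, Neurod1, Neurod4 and Olig2, Hes1, Hes5 and Hes6, and the ligand Dll1. All 9 were found among the 20418 gene symbols of the deposited tables, each as a single transcript row, and all 9 passed the filter on low counts in each comparison. A stricter filter tried as an alternative, a mean of at least 5 RPKM, left Olig2 out of the newborn and adult comparisons. The study asked how Egr1, an immediate-early transcription factor, acts in eyelid development. Its 15 libraries came from BALB/c mice, either wild type or carrying an Egr1 mutant allele bred from C57BL/6. The groups were 2 newborn wild-type and 2 newborn Egr1-/- libraries, 8 single eyes of 4 mice at 3 days of age, and 1 wild-type and 2 Egr1-/- adult libraries. The 3-day-old mice were E24, E29 and E32, all Egr1-/-, and their Egr1+/- littermate control E28. E24 was open on the right and closed on the left, E29 the reverse, E32 open on both sides and E28 closed on both. The allele had been crossed into BALB/c for 4 or 5 generations, so segments of the donor strain may remain. The labels do not say how many animals a newborn or adult library holds, so their p-values rest on the spread between libraries alone, which may be technical.

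Retinal neurons arise from dividing progenitors in an order that begins with ganglion cells and ends, after birth in mice, with rods, bipolar cells and Muller glia. Basic helix-loop-helix (bHLH) activators such as Atoh7 and Neurog2 push a progenitor towards a neuronal fate, and the later-acting Neurod1 and Neurod4 serve in photoreceptor, amacrine and bipolar cell formation. A cell that starts on this path displays the ligand Dll1, which activates Notch receptors on its neighbours, and the released Notch domain joins the DNA-binding protein Rbpj to switch on Hes1 and Hes5, repressors that hold the neighbour as a progenitor. Hes6 is an unusual Hes protein that counteracts Hes1 and promotes neuronal differentiation. Olig2 is made by a subset of retinal progenitors and, in brain, spinal cord and optic nerve, by the oligodendrocyte lineage.

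The libraries held 20334849 to 43907093 reads in transcripts. Egr1 itself was higher in libraries labelled Egr1-/- than in wild types at every age with both, for example at 69.8 and 89.1 RPKM against 15.01 and 19.8 RPKM in newborns. The labels do not say which stretch of the gene was removed, so these reads cannot check the genotype, and the group is called labelled knockout below. Levels are given as RPKM, which divides the reads of a gene by the length of its exons and the size of the library, rescaled here by the trimmed mean of M values (TMM), which sets the bulk of genes level across all 15 libraries. A pair of genes of retinal progenitors, Rax and Six6, served as a retina reference, taken as their summed RPKM in a library, of which Rax made up 89.9% to 96.4%. Some libraries stood apart. The left eye of E32 had a retina reference of 20.2 RPKM, against 198 to 505 RPKM in the other 7 day 3 eyes. The first newborn labelled-knockout library held 252 RPKM summed over 6 lens genes, against at least 35550 RPKM in the other 3 newborn libraries. In the first newborn wild type the total behind the authors' RPKM was 1.32 times the reads in transcripts. That library also had the highest TMM factor of all, 1.28. In the other newborn and adult libraries the total was 0.951 to 1.005 times the reads, and in the day 3 libraries 0.890 to 0.900 times. Age cannot be told apart from such differences in library handling.

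Promoters are shown for 3 members whose levels moved closely together over the libraries, Neurog2, Hes5 and Hes6. RefSeq entries of mouse build GRCm38.p6 matched 8 of the 9 genes, all but Hes1, with 11 promoter windows. Each run is the 250 bases before an annotated start, on the strand of the gene. Capitals mark TGGGAA or its complement TTCCCA, the core of Rbpj sites, in Hes5, CAGCTG, an E-box of the kind bound by proneural bHLH proteins, in Hes6, and TATAA, the core of the TATA box, in Hes6 and Neurog2.
Hes5, chr4:154960673-154960922, plus strand: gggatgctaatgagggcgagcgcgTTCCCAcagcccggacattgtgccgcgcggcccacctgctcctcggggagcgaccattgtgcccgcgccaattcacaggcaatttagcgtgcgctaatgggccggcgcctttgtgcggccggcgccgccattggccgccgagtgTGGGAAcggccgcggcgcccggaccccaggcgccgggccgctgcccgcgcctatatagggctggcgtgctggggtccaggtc
Hes6, chr1:91413223-91413472, minus strand: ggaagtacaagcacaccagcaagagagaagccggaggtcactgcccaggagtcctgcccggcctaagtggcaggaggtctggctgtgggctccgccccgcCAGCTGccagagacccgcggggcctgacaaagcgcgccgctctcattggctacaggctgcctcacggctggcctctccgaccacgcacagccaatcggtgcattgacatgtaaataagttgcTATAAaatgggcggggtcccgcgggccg
Neurog2, chr3:127632886-127633135, plus strand: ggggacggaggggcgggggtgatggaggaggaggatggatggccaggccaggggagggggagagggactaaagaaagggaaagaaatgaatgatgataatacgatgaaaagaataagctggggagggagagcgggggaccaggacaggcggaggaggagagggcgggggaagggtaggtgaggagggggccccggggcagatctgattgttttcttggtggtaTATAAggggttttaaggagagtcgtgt
The Hes5 window holds 2 matches to TGGGAA, whose first bases lie at -226 (minus strand) and -82 (plus strand), counted back from the start. The Atoh7 window also holds a match, at -114 (minus strand). Of 32851 promoter windows of this length, 21.6% hold at least 1 such match on either strand, and 2.77% hold 2 or more. In Hes6, CAGCTG begins at -150 and TATAA at -28. A second Hes6 window, chr1:91414039-91414288, holds CAGCTG at -171 from its own start, and a Dll1 window holds it at -132. Of all windows, 13% hold the motif on either strand. In Neurog2, TATAA begins at -27, and the windows of Neurod1 and Atoh7 hold it at -29 and -30, while 3.17% of all windows hold TATAA on the gene strand from 35 to 20 bases before the start. These matches are letters in a window and carry no measurement of binding. The N-box CACNAG, a motif of Hes proteins that 36.7% of windows hold, was found in the shown Hes6 window at -237 and in both Neurod4 windows.

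In newborn wild-type eyes Hes6 was the most abundant of the 9 genes, at 475 ± 12.4 RPKM (SD, n = 2), which is 48.2% of their summed level. Hes5 at 146 ± 3.83 RPKM and Neurod1 at 146 ± 28.4 RPKM came next and did not differ beyond their spread. Neurod4 followed at 71.0 ± 5.26 RPKM and Neurog2 at 51.1 ± 2.88 RPKM, with no overlap between their replicates. Below them were Hes1 at 34.1 ± 5.74 RPKM, Atoh7 at 26.2 ± 4.65 RPKM, Dll1 at 23.7 ± 5.77 RPKM and Olig2 at 13.1 ± 2.36 RPKM. The ranges of Atoh7 and Dll1 overlapped, and the lowest Hes1 value, 30.05 RPKM, lay just above the highest Atoh7 value, 29.5 RPKM. The exon length used for Atoh7 in the files is 450 bases, a multiple of 3, and may cover coding sequence only, so its level per kilobase is less certain against the other genes.

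In the newborn labelled knockouts Hes6 was again first, at 111 ± 28.3 RPKM (n = 2), and Hes1 came second at 52.9 ± 11.5 RPKM, ahead of Hes5 at 33.8 ± 10.1 RPKM, whose range of 26.6 to 40.9 RPKM lay below that of Hes1. Olig2 was last at 3.90 ± 0.951 RPKM.

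At day 3 the order in the heterozygous mouse was again led by Hes6 (561 RPKM as the mean of both eyes), Hes5 (223 RPKM) and Neurod1 (141 RPKM), with Neurog2 (119 RPKM) and Atoh7 (84.1 RPKM) next. Neurod4, the fourth gene of the newborn wild types, was last there at 33.9 RPKM. In the 3 labelled-knockout mice the first 5 genes came in the same order, Hes6 at 408 ± 228 RPKM, Hes5 at 141 ± 80.8, Neurod1 at 98.6 ± 61.2, Neurog2 at 65.7 ± 37.2 and Atoh7 at 51.7 ± 32.2 RPKM (SD over mouse means, n = 3). E32 was the lowest mouse for each of these 5 genes, and neighbours in the order overlapped. In adults the order was different. Neurod1 led at 62.2 RPKM in the wild type and 53.6 ± 3.02 RPKM in the labelled knockouts (n = 2), ahead of Hes1 at 39.5 and 36.7 ± 10.7 RPKM. Hes6 stood at 23.9 and 22.1 ± 1.16 RPKM and Neurod4 at 18.6 and 20.6 ± 5.72 RPKM. Hes6 and Neurod4 overlapped in the labelled knockouts. Neurog2, Atoh7 and Olig2 were each below 1 RPKM in all 3 adult libraries.

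**Figure D1:**
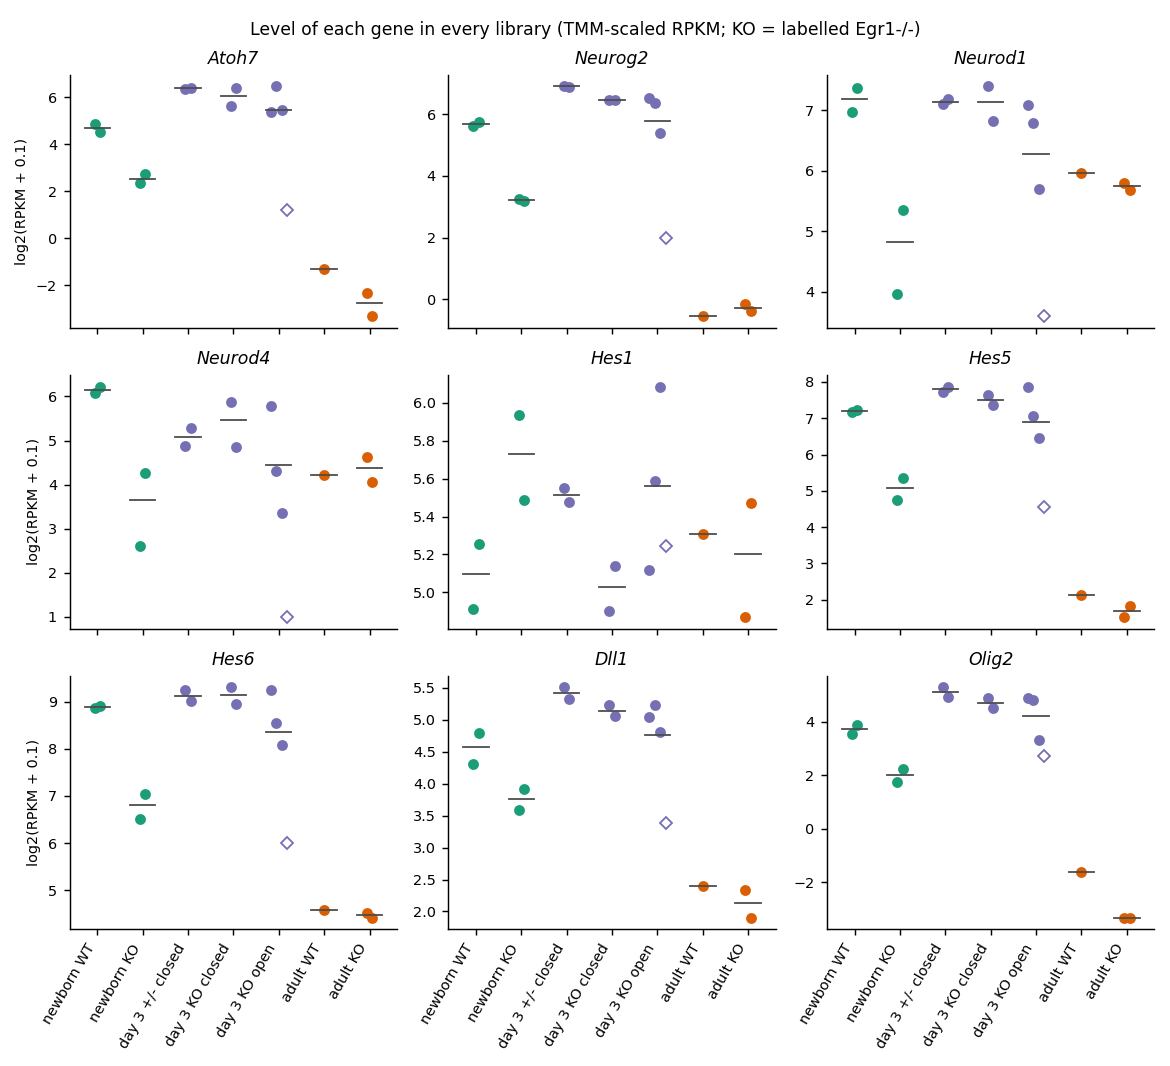
Level of each gene in every library, as log2 of the TMM-scaled RPKM plus 0.1 on the y axis, by group on the x axis; points are libraries, bars are means over libraries, the open diamond is the left eye of E32, and the y scales differ between genes. Except in Hes1, both newborn labelled-knockout points lie below both newborn wild-type points. Except in Neurod1, Neurod4 and Hes1, levels are lowest in adults. How many of all genes separate in these ways was not counted.

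Newborn labelled-knockout eyes had lower levels of 8 of the 9 genes than newborn wild types. The proneural factors, both later Neurod genes, Hes5, Hes6, Dll1 and Olig2 fell, and Hes1 alone did not. Of all 17592 genes tested, 24.0% passed an adjusted p of 0.05 (edgeR's quasi-likelihood test with Benjamini-Hochberg adjustment over all genes), 9.38% as lower and 14.6% as higher. The members' median log2 fold change was -2.12, against -0.07 over all genes. In RNA of whole eyes, fewer cells of a type and less RNA per cell cannot be told apart.

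Among the activators, Atoh7, needed for ganglion cells, stood at 29.5 and 22.9 RPKM in the wild types and at 4.96 and 6.49 RPKM in the labelled knockouts. The groups did not overlap, and the log2 fold change was -2.20 ± 0.36 (SE; edgeR adjusted p = 0.00657). Neurog2, which is made in cycling neurogenic progenitors, stood at 49.0 and 53.1 RPKM against 9.36 and 8.99 RPKM. Its log2 fold change had the smallest SE of the 9 genes, -2.49 ± 0.17 (edgeR adjusted p = 0.0022). Neurod1, which acts in photoreceptor precursors and amacrine cells, had 126 and 166 RPKM against 15.5 and 41.0 RPKM, a log2 fold change of -2.38 ± 0.45 (edgeR adjusted p = 0.0102). Neurod4, a partner of Neurod1 in amacrine and bipolar cell formation, had 67.2 and 74.7 RPKM against 6.00 and 19.0 RPKM, a log2 fold change of -2.51 ± 0.51 (edgeR adjusted p = 0.0134). For both Neurod genes the first labelled-knockout library, which also lacked most lens RNA, was the lower of the pair. Without that library the Neurod1 and Neurod4 values were -1.84 and -1.91, and both passed the test. Olig2 had 11.5 and 14.8 RPKM against 3.23 and 4.57 RPKM, a log2 fold change of -1.76 ± 0.26 (edgeR adjusted p = 0.00699).

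On the Notch side, Dll1 had 19.7 and 27.8 RPKM in the wild types and 11.9 and 15.05 RPKM in the labelled knockouts. This was the smallest of the falls, -0.83 ± 0.25, and its edgeR adjusted p of 0.0497 lay just under the threshold. Hes5, a repressor read as a sign of Notch activity in progenitors, had 143 and 148 RPKM against 26.6 and 40.9 RPKM, a log2 fold change of -2.12 ± 0.24 (edgeR adjusted p = 0.0033). Hes6 had 466 and 483 RPKM against 91.2 and 131 RPKM, a log2 fold change of -2.10 ± 0.25 (edgeR adjusted p = 0.0033). Hes1, which many tissues outside the retina also make, went the other way: 30.05 and 38.2 RPKM in the wild types, 61.03 and 44.8 RPKM in the labelled knockouts. The Hes1 groups did not overlap, yet the log2 fold change of 0.62 ± 0.27 missed the threshold (edgeR adjusted p = 0.14).

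These calls depended on the wild-type pair. Without the first newborn wild type 0 of the 9 genes passed, and without the second 3 did, Neurog2, Hes5 and Hes6. Leaving out either labelled-knockout library kept 7, with Dll1 lost. The lone library of a group was then assumed to vary like the other groups, and in none of these 4 fits did a log2 fold change of a member change sign.

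Other retinal genes fell in the same libraries. Rax and Six6, both reference genes, fell, with log2 fold changes of -2.49 and -2.26. They belong to a list of 11 retinal progenitor genes, of which 9 fell, Rax and Six6 included, and 0 rose. Other falls in that list were Fgf15 (-2.28 ± 0.22), Lhx2 (-1.88 ± 0.25) and Foxn4 (-1.86 ± 0.29). Of 8 photoreceptor precursor genes, 6 fell, among them Rcvrn (-3.00 ± 0.43) and Otx2 (-2.02 ± 0.38), as did 5 of 6 ganglion cell genes and 5 of 7 amacrine and horizontal cell genes, with 0 rising in these 3 lists. Of 6 Muller glia genes 2 fell and 1 rose, and 0 of 6 lens and 0 of 7 cell division genes passed. Genes of other tissues moved the other way: 4 of 7 epidermal, 3 of 6 fibroblast, 3 of 7 oligodendrocyte and myelin and 1 of 6 skeletal muscle genes rose, and 0 fell. The summed level of the epidermal genes was 255 to 608 RPKM in the newborn wild types and 3387 to 3713 RPKM in the labelled knockouts, that of the fibroblast genes 988 to 1496 against 2986 to 4803 RPKM, and that of the skeletal muscle genes 1351 to 1806 against 3075 to 3781 RPKM. No gene of these 3 lists was at 0 in any library, and their part in the members' falls was not tested.

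Set against the retina reference in the same library, 7 of the members lay closer together in the newborn groups than they did in RPKM. Neurog2 stood at 21.3% ± 1.65 of the reference in the wild types and 22.03% ± 7.37 in the labelled knockouts (SD, n = 2 each), and Atoh7 at 11.1% ± 3.41 and 13.3% ± 1.63. Neurod1 had 60.1% ± 3.74 and 60.85% ± 22.45, and Neurod4 29.5% ± 1.77 and 26.5% ± 12.8. In these 4 genes the ranges of both groups overlapped. Hes5 came to 60.8% ± 6.55 and 77.0% ± 0.742, and Hes6 to 198% ± 21.3 and 255.5% ± 14.1. Olig2 stood at 5.43% ± 0.251 against 8.97% ± 0.593. In these 3 genes both labelled knockouts lay above both wild types. Dll1 came to 9.76% ± 1.085 of the reference in the wild types and 31.4% ± 4.61 in the labelled knockouts, and Hes1 to 14.1% ± 0.491 and 131% ± 66.4. For these last 2 genes both labelled knockouts were well above both wild types.

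The same fit, with the reads of Rax and Six6 in place of TMM scaling, is an alternative chosen after seeing the data. It called 83.4% of all genes as different, nearly all as higher, so a call there says little of a single gene. Under it the members that had fallen lay nearer 0: Atoh7 at 0.25, Neurog2 at 0.04, Neurod1 at 0.00, Neurod4 at -0.18, Hes5 at 0.33, Hes6 at 0.36 and Olig2 at 0.71 on the log2 scale, and none of these 7 passed. Dll1 at 1.67 (edgeR adjusted p = 5.77e-05) and Hes1 at 3.21 (edgeR adjusted p = 3.58e-12) passed as higher. The SE under this scaling was between 0.40 and 0.67 for the 9 genes, against 0.17 to 0.51 with TMM, and Rax gave most of the reads that set the scale.

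**Figure D2:**
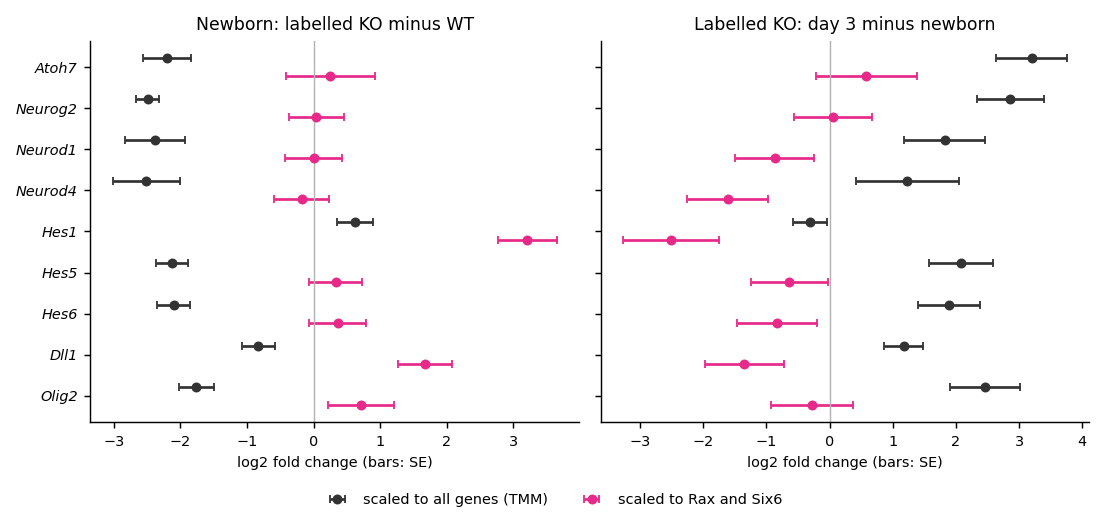
Log2 fold change of each gene on the x axis, with its SE as bars, for newborn labelled knockout against wild type (left) and for labelled knockout at day 3 against newborn (right). Dark points are scaled to all genes and pink points to Rax and Six6: in the left panel 8 of the 9 dark points lie below 0 and 7 of the 9 pink points lie within 0.71 of 0.

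Over the 12 newborn and day 3 libraries the members followed the retina reference to different degrees. Pearson's r of log2 levels with the reference was 0.99 for Hes5, Neurog2 and Hes6, 0.96 for Dll1, 0.95 for Neurod1, 0.94 for Atoh7 and 0.91 for Olig2. It was 0.82 for Neurod4 and -0.30 for Hes1. These are descriptions over libraries that share scaling and, at day 3, mice. The reference itself ran from 20.2 to 505 RPKM over these libraries, and the part of retina content in each value was not tested. In the plot of levels against the reference, adult libraries leave the line for Neurog2 and Hes5: at a reference of 44.9 to 58.1 RPKM, adults held 0.58 to 0.79 RPKM of Neurog2, while the newborn labelled knockout at a reference of 53.5 RPKM held 8.99 RPKM. For Neurod4 that same newborn library at 19.0 RPKM lay within the adult range of 16.5 to 24.6 RPKM.

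**Figure D3:**
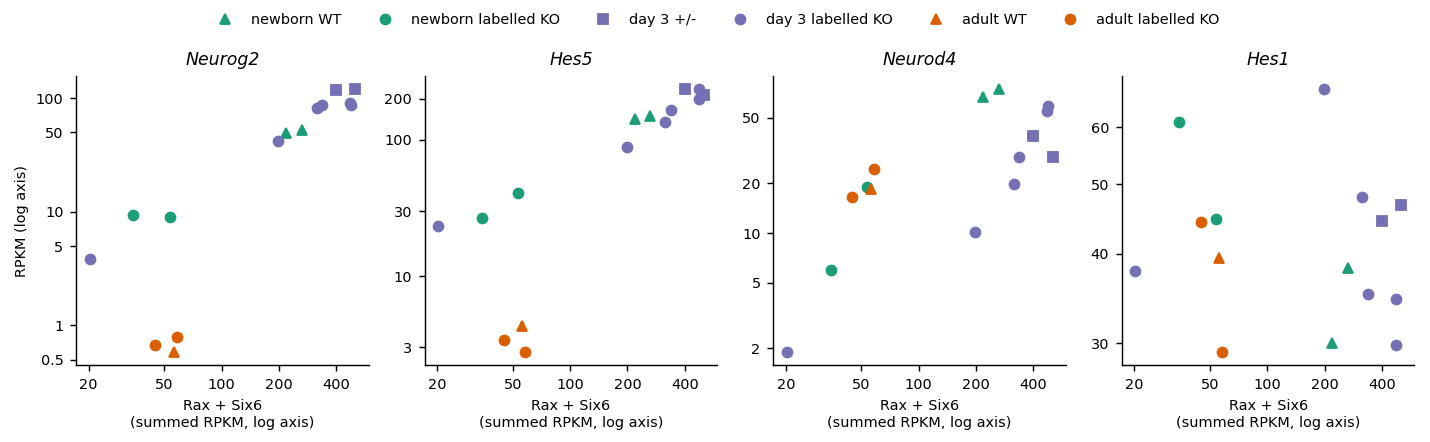
Level of 4 of the genes on the y axis against the summed level of Rax and Six6 on the x axis, in RPKM on log axes, 1 point a library; shape gives the genotype label and colour the age. Neurog2 and Hes5 rise with the reference in newborn and day 3 libraries and lie far below that line in adults, and Hes1 keeps between 29.1 and 67.8 RPKM throughout.

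The wider Notch pathway did not fall as a whole in the newborn labelled knockouts. Of 9 other receptors and ligands, 4 rose and 2 fell, with a median of 0.84 on the log2 scale against -0.07 over all genes. Receptors Notch2 (1.34 ± 0.17, edgeR adjusted p = 0.00362) and Notch3 (1.86 ± 0.28, edgeR adjusted p = 0.00521), the latter known from mural cells of vessels, rose, whereas Dll3, a Delta-like protein of neurogenic cells, fell (-2.31 ± 0.34), as did the neuronal ligand Dner (-1.61 ± 0.25). Of 18 processing genes and modulators, 2 rose and 3 fell, where 14.6% of all genes rose and 9.38% fell. Dtx1 (-1.54 ± 0.25) and the glycosyltransferase Mfng (-1.48 ± 0.25) fell, and the protease Adam17 (0.89 ± 0.16) and the Notch inhibitor Numb (0.83 ± 0.18) rose. Of 10 nuclear partners and other targets, Maml2 rose (1.08 ± 0.16) and Nrarp (-1.01 ± 0.25) and Hey1 (-0.68 ± 0.18) fell. The counts in both of these lists lie near the shares over all genes, so they say little of the pathway. Of 10 other proneural bHLH genes, 7 fell and 0 rose, with a median of -2.09. Ptf1a, which specifies amacrine and horizontal cells, changed by -2.22 ± 0.33 and Neurod2 by -2.08 ± 0.28. Of 7 dimerization partners and Id inhibitors, Tcf3 (1.55 ± 0.21) and Id4 (0.65 ± 0.17) rose and 0 fell. The epidermal, fibroblast and muscle sums given above rose in the same libraries, and their part in the higher Notch2, Notch3 and Tcf3 was not tested.

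From birth to day 3, labelled knockouts gained 6 of the 9 genes: Atoh7, Neurog2, Hes5, Hes6, Dll1 and Olig2. In this comparison of 3 mice (both eyes summed) with the 2 newborn libraries, 17.8% of 17980 genes passed, 11.1% as higher. The members' median was 1.89, against -0.08 over all genes. It uses the same newborn labelled-knockout libraries as the genotype comparison, so the 2 results are not independent. Atoh7 had 4.96 and 6.49 RPKM in newborns and means of 45.7 (E24), 86.4 (E29) and 22.9 RPKM (E32) over both eyes at day 3. All 3 mice were above both newborns, a log2 fold change of 3.20 ± 0.56 (edgeR adjusted p = 0.0139). Neurog2 went from 9.36 and 8.99 RPKM to 89.8, 84.4 and 22.8 RPKM in the same order of mice (2.86 ± 0.53, edgeR adjusted p = 0.0159). Olig2 went from 3.23 and 4.57 RPKM to 29.6, 25.7 and 8.13 RPKM (2.46 ± 0.55, edgeR adjusted p = 0.0282). E32 was the lowest of the 3 mice for each of these genes.

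On the Notch side, Hes5 changed by 2.08 ± 0.51 (edgeR adjusted p = 0.0305), from 26.6 and 40.9 RPKM to 217, 149 and 55.8 RPKM. Hes6 changed by 1.89 ± 0.49 (edgeR adjusted p = 0.0347) and Dll1 by 1.17 ± 0.31 (edgeR adjusted p = 0.0377). Neurod1 at 1.82 ± 0.64 (edgeR adjusted p = 0.0806), Neurod4 at 1.23 ± 0.82 (edgeR adjusted p = 0.301) and Hes1 at -0.31 ± 0.27 (edgeR adjusted p = 0.426) did not pass. The 6 calls were lost without either newborn labelled-knockout library, which left 1 library in that group, and in a fit of this kind calls were lost over all genes. With E24 left out 2 members passed and with E29 left out 1. Fewer passed too without either newborn wild type. With the left eye of E32 left out 7 passed, Neurod1 included (1.91 ± 0.53), and without E32 altogether 7 did. Calls over all genes also varied with the library or mouse left out, so these counts need not concern the members in particular. With closed eyes only at day 3 all 9 passed, 8 as higher and Hes1 as lower (-0.85 ± 0.26). That fit also drops E32, both of whose eyes were open, and keeps 1 eye each of E24 and E29. Over all genes 6938 passed in it, against 3207 in the main fit. The parts of eyelid state and of the missing mouse were not tested.

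The heterozygous mouse against the newborn wild types was a comparison added after seeing the data. It gave smaller values for each of the genes that had gained in labelled knockouts. Far fewer genes passed over all as well, so the lack of calls among the members says nothing of them in particular. Atoh7 was 82.6 and 85.6 RPKM in the 2 eyes at day 3 against 29.5 and 22.9 RPKM in newborn wild types (1.68 ± 0.62, edgeR adjusted p = 0.127), and Neurog2 was 120 and 119 RPKM against 49.0 and 53.1 RPKM (1.23 ± 0.61, edgeR adjusted p = 0.208). Hes6 was at 0.25 ± 0.60 and Neurod1 at -0.05 ± 0.80. Neurod4 was lower at day 3 by value, 29.02 and 38.8 RPKM against 67.2 and 74.7 RPKM, though not by the test (-1.09 ± 1.11, edgeR adjusted p = 0.529). This comparison rests on 1 mouse, assumed to vary like the others.

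Relative to the retina reference the later Neurod genes were lower at day 3 than at birth, 1 eye excepted. The reference itself was higher at day 3 by its means. Rax had 224 RPKM in newborn wild types and 434 RPKM in the heterozygous mouse, and 40.2 and 290 RPKM in labelled knockouts at birth and day 3. Neurod4 came to 28.3% and 30.8% of the reference in newborn wild types and 17.45% and 35.6% in newborn labelled knockouts, and to 5.10% to 12.3% in the 8 day 3 eyes, with no overlap. Neurod1 came to 44.98% to 76.7% in the 4 newborn libraries and to 26.2% to 36.3% in 7 of the day 3 eyes, while the left eye of E32, at 59.3%, lay within the newborn range. Atoh7 was 8.67% to 14.4% in newborns. At day 3 it fell into a low set, both eyes of E24 (8.79% and 10.4%) and the left eye of E32 (10.98%), and a high set of the other 5 eyes at 16.4% to 28.2%. Under scaling to the reference reads, which called 81.2% of all genes, Neurod4 (-1.61, edgeR adjusted p = 0.0272) and Hes1 (-2.51, edgeR adjusted p = 0.00861) passed as lower at day 3, and none of the 6 genes that had gained passed. Atoh7 (0.58) and Neurog2 (0.05) kept their sign, whereas Hes5 (-0.64), Hes6 (-0.83), Dll1 (-1.35) and Olig2 (-0.28) changed theirs.

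In the same comparison, 11.1% of all genes were higher. Among pathway genes, 3 of 9 other receptors and ligands rose and 0 fell: Dner (2.45 ± 0.32), Notch1 (1.51 ± 0.30) and Dll3 (2.44 ± 0.53). Notch1, the main receptor of retinal progenitors, had 34.7 and 44.6 RPKM in newborn labelled knockouts and 46.8 to 153 RPKM in the 6 labelled-knockout eyes at day 3. Of 18 processing genes 5 rose, led by Dtx1 (2.75 ± 0.42), of 10 nuclear partners and targets 4 rose, among them Hey1 (0.93 ± 0.19) and Nrarp (1.19 ± 0.25), and 0 fell in either list. Of 11 other proneural genes 4 rose, including Neurog1 (3.14 ± 0.42), Ptf1a (2.55 ± 0.53) and Neurod2 (1.96 ± 0.43). Of 7 partners and Id inhibitors 1 rose, Tcf4 (0.68 ± 0.18). Retinal progenitor genes rose too, 7 of 11, with 4 of 6 ganglion cell and 5 of 7 amacrine and horizontal cell genes, and cell division genes summed to 195 to 260 RPKM in newborn and 226 to 459 RPKM in day 3 labelled knockouts. Their part in the members' rise was not tested.

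Eyelid state left no mark on these genes that the test could detect. Of 15754 genes, 0.514% passed for open against closed eyes, with the mouse as a block, and 0 of the 9 members did, with edgeR adjusted p-values of 0.999 or more. Their log2 fold changes ran from -0.30 (Neurod4) to 0.35 (Hes1), with SE from 0.24 (Olig2) to 0.95 (Atoh7). The 2 mice with 1 open and 1 closed eye allow a direct comparison, though 2 pairs cannot show that an effect is absent. In E24 the open right eye had 41.7 RPKM of Atoh7, 91.8 of Neurog2 and 606 of Hes6, and the closed left eye 49.8, 87.8 and 636 RPKM. In E29 the open left eye had 89.3, 81.8 and 373 RPKM of these genes and the closed right eye 83.5, 87.0 and 499 RPKM. Hes1 was higher in the open eye of both mice (34.6 against 29.8 RPKM in E24, 47.97 against 35.15 RPKM in E29), as was Olig2. Neurod1, Neurod4 and Hes6 were lower in the open eye of both, and the remaining members differed in direction between the mice. Over E24, E28 and E29 the right to left ratios of the members, which do not follow eyelid state, ran from 0.733 (Hes1 in E29) to 1.45 (Neurod4 in E29).

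The 2 open eyes of E32 differed far more than those of any other mouse. Right over left was 19.6-fold for Atoh7 (43.6 against 2.22 RPKM) and 10.9-fold for Neurog2 (41.8 against 3.82 RPKM). It was 5.36-fold for Neurod4, 4.34-fold for Neurod1, 4.24-fold for Hes6, 3.79-fold for Hes5, 2.69-fold for Dll1, 1.79-fold for Hes1 and 1.51-fold for Olig2, and 9.80-fold for the retina reference. The members did not go down in step: the drop in Atoh7 was larger than that in the reference, that in Neurog2 close to it and the drop in Olig2 smaller, with Olig2 at 32.05% of the reference in the left eye against 4.94% to 8.97% in the other 7 eyes. The left eye was the highest of the 15 libraries for Olig1, a relative of Olig2 in the oligodendrocyte lineage, at 17.2 RPKM against at most 4.45 RPKM elsewhere. It was also the highest at day 3 for the summed oligodendrocyte and myelin genes (220 RPKM against 35.3 to 148 RPKM), yet Mog, a gene of mature myelin, had 1 read there. Fibroblast genes summed to 4941 RPKM in it against 1796 to 3586 RPKM. With 1 such eye there is no replicate of this pattern, and no test was made.

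**Figure D4:**
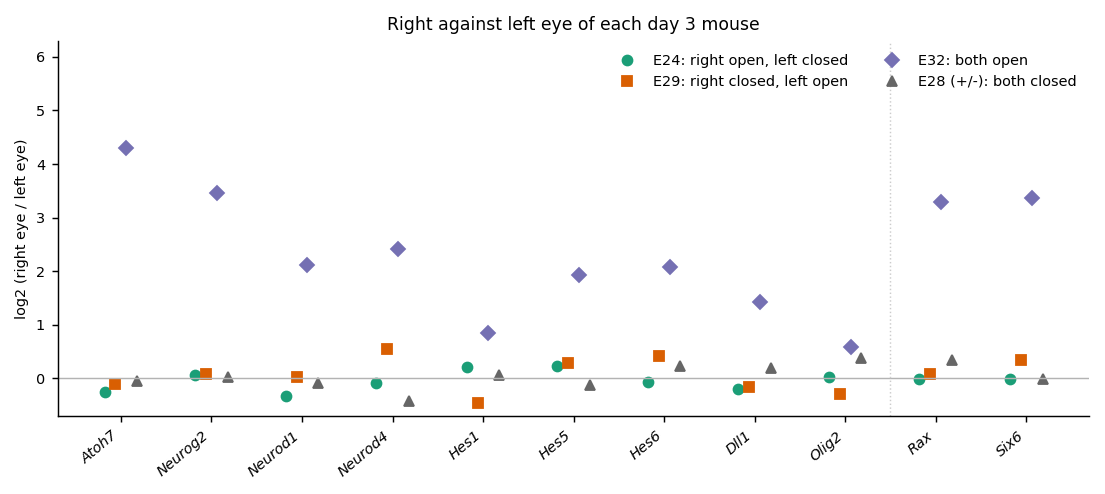
Right against left eye of each day 3 mouse as a log2 ratio on the y axis, for the 9 genes and, to the right of the dotted line, both reference genes on the x axis; each point is 1 mouse. The points of E24, E28 and E29 lie between -0.45 and 0.54, and those of E32 between 0.59 and 4.29.

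No difference between labelled-knockout and heterozygous mice at day 3 was detected in these genes. Of 16453 genes, 0% passed (0 genes; 273 had an unadjusted p under 0.05, and DESeq2 called 94), and 0 of the 9 members did. All 9 values were negative, from -0.06 ± 0.36 for Hes1 to -0.83 ± 0.71 for Neurog2, with edgeR adjusted p-values of 0.999. The group of 3 labelled knockouts included E32, and the heterozygous group was 1 mouse.

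Adult eyes held far less of 6 of the members than newborn eyes, and the other 3 did not pass the test. In this comparison of 3 adult with 4 newborn libraries, averaged over genotype labels, 49.2% of the genes passed, 24.0% as lower, and the members' median was -3.34 against -0.04 over all genes. Neurog2 was 0.58 RPKM in the adult wild type and 0.79 and 0.67 RPKM in the labelled knockouts, below all 4 newborns (-5.07 ± 0.18, edgeR adjusted p = 1.06e-05). Hes5 was 4.29, 2.77 and 3.42 RPKM (-4.28 ± 0.24, edgeR adjusted p = 2.85e-05), Hes6 23.9, 22.9 and 21.2 RPKM (-3.34 ± 0.23, edgeR adjusted p = 5.52e-05) and Dll1 5.19, 4.97 and 3.64 RPKM (-1.94 ± 0.21, edgeR adjusted p = 0.000386). Each of these lay below every newborn library.

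Atoh7 and Olig2 came close to 0. Atoh7 had 3 reads in the adult wild type and 1 and 0 in the labelled knockouts, against 520 in the 2 newborn wild types, an 85.1-fold higher level in newborns (95% exact conditional interval 28.9 to 414, counting error only). For labelled knockouts the newborn to adult ratio was 113 (19.99 to 4500) on 143 reads against 1. Olig2 had 12 reads in the adult wild type against 1432 in newborn wild types, a ratio of 58.6 (33.4 to 114). It had 0 reads in both adult labelled knockouts, against 526 in the newborn ones, which with a floor of 3 reads a library is at least 70.2-fold higher in newborns.

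Neurod1, Neurod4 and Hes1 did not pass. Neurod1 stood at 62.2, 55.7 and 51.5 RPKM in adults, between the newborn labelled knockouts (15.5 and 41.0 RPKM) and wild types (126 and 166 RPKM), with a value of -0.17 ± 0.34 (edgeR adjusted p = 0.702). Neurod4 stood at 18.6, 24.6 and 16.5 RPKM, with a value of -0.62 ± 0.39 (edgeR adjusted p = 0.224), and passed as lower without the first newborn labelled knockout (-0.93, edgeR adjusted p = 0.0116). These averages join means that went opposite ways by genotype label. In wild types Neurod4 went from 71.0 RPKM in newborns to 18.6 RPKM in the 1 adult library and Neurod1 from 146 to 62.2 RPKM. In labelled knockouts the means went from 12.5 to 20.6 RPKM and from 28.2 to 53.6 RPKM. The Neurod4 ranges of the labelled knockouts overlapped, at 6.00 and 19.0 RPKM in newborns and 24.6 and 16.5 RPKM in adults. Hes1 stood at 39.5, 29.1 and 44.2 RPKM, with a value of -0.17 ± 0.21 (edgeR adjusted p = 0.524). Neurod1 is known to stay on in mature photoreceptors. Relative to the retina reference, adult Neurod1 came to 95.8% to 115% and Neurod4 to 33.2% to 42.3%, both above every day 3 eye. The reference is made of progenitor genes and was itself lower in adults. Rax had a mean of 290 RPKM in day 3 labelled knockouts and 46.3 RPKM in adult ones. Between the same groups the mean of Neurod1 went from 98.6 to 53.6 RPKM, so a higher percentage here does not mean a higher level. Scaled to Rax and Six6, a fit that called 57.5% of all genes, Neurod1 (0.81, edgeR adjusted p = 0.0288) and Hes1 (0.71, edgeR adjusted p = 0.0443) passed as higher in adults relative to that pair.

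Against day 3 labelled knockouts the same 6 members fell in adult labelled knockouts and the same 3 did not pass, in a comparison where 50.1% of 17980 genes passed and 25.7% as lower. It shares the adult libraries with the comparison above. Neurog2 changed by -6.51 ± 0.66, Hes5 by -5.53 ± 0.62, Hes6 by -4.23 ± 0.55 and Dll1 by -2.81 ± 0.34, with edgeR adjusted p-values from 0.000183 to 0.000557. For Atoh7, 3602 reads in the 6 day 3 eyes stood against 1 in the adult pair, a ratio of 1028 (184 to 4.06e+04), and for Olig2 7935 reads stood against 0, at least 380-fold. Neurod1 was at -0.90 ± 0.61, Neurod4 at -0.52 ± 0.80 and Hes1 at -0.22 ± 0.27. Scaled to Rax and Six6, which called 58.9% of all genes, Neurod1 (1.64, edgeR adjusted p = 0.0326) and Neurod4 (2.16, edgeR adjusted p = 0.00884) passed as higher in adults relative to that pair. Dll1 (-0.60, edgeR adjusted p = 0.413) did not pass. The pair itself was lower in adults, with a median log2 fold change of -2.08 under TMM.

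Notch pathway genes went both ways with age. From newborn to adult, where 24.0% of all genes were lower, 4 of 9 other receptors and ligands fell and 2 rose, with a median of -0.28 on the log2 scale: Dll3 (-6.05 ± 0.40), Notch1 (-2.02 ± 0.22) and the vascular ligand Dll4 (-3.00 ± 0.34) fell, and Jag1 (0.88 ± 0.16) rose. Of 18 processing genes 6 fell, 3 rose and 9 did not pass (median -0.14), the gamma-secretase subunits Psenen (-1.98 ± 0.15) and Aph1a (-1.50 ± 0.16) and the glycosyltransferases Mfng (-1.78 ± 0.21) and Lfng (-1.42 ± 0.17) among the falls. Of 10 nuclear partners and targets 7 fell and 1 rose (median -1.28), with Rbpj at -2.16 ± 0.15 and Heyl at -3.30 ± 0.24. Of 10 other proneural genes 4 fell and 1 rose. Neurog1 was among the falls and had 0 reads in all 3 adults. The riser was Bhlhe23, a bHLH factor of bipolar cells, with 0 to 7 reads in each newborn and 479 to 546 reads in each adult library. Of 7 partners and Id inhibitors 6 fell and 0 rose, Id4 by 1.30 and Id3 by 1.02. Retinal progenitor genes fell in 9 of 11 cases, cell division genes summed to 195 to 303 RPKM in newborns and 45.5 to 60.4 RPKM in adults, and 5 of 8 photoreceptor genes rose, Thrb by 2.16 ± 0.12.

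Genotype made no detectable difference in adults. Of 17592 genes 0% passed with edgeR (0 genes; 506 had an unadjusted p under 0.05, and DESeq2 called 102), and 0 of the 9 members did. In Neurod4 and Hes1 the wild type lay between the 2 labelled knockouts, and in Neurog2 it was lower than both (0.58 against 0.79 and 0.67 RPKM, 0.36 ± 0.26). Hes5, Hes6, Neurod1 and Dll1 were lower in both labelled knockouts than in the wild type by value, with log2 differences from -0.45 ± 0.32 to -0.09 ± 0.29. Olig2, with 12 reads in the wild type and 0 in the others, is at least 4.07-fold lower, edgeR gave an adjusted p of 0.331, and DESeq2 called it. Olig1 had 26 reads in that wild type against 7 and 2, and Mog 39 against 8 and 4, neither of which passed. With 1 wild-type library no spread of that group could be measured.

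The genotype difference itself was tested between ages. Adult minus newborn effects passed for 2.80% of the genes, 0.995% in the positive direction, and for 2 members. Neurog2 differed by 2.85 ± 0.31 (edgeR adjusted p = 0.0307), from -2.49 in newborns to 0.36 in adults, and Hes6 by 2.01 ± 0.39 (edgeR adjusted p = 0.0489), from -2.10 to -0.09. Neurod4 (2.68 ± 0.81, edgeR adjusted p = 0.117), Neurod1 (2.19 ± 0.70, edgeR adjusted p = 0.133) and Hes5 (1.67 ± 0.41, edgeR adjusted p = 0.0737) did not pass. Nor did Dll1 (0.58 ± 0.40) or the members with negative values, Olig2 (-4.94 ± 1.24, edgeR adjusted p = 0.09), Hes1 (-0.70 ± 0.42) and Atoh7 (-0.14 ± 0.48). Few adult reads limit the values of Olig2 and Atoh7. Leaving out a newborn library left a lone library in its group, and which members passed then changed with the library left out. Calls over all genes varied as well, so this need not concern the members in particular. Without the first newborn labelled knockout the Neurog2 difference was 2.87 and the Hes6 difference 1.77. Scaled to Rax and Six6, neither Neurog2 (0.40 ± 0.72, edgeR adjusted p = 0.63) nor Hes6 (-0.35 ± 0.68, edgeR adjusted p = 0.659) passed. The adult arm has 1 wild-type library.

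Between members, levels over all 15 libraries fell into 3 patterns. Atoh7, Neurog2, Hes5, Hes6, Dll1 and Olig2 had pairwise Pearson correlations of log2 levels from 0.93 to 0.99. Neurod1 and Neurod4 were closest to each other (0.92) and had 0.34 to 0.67 with those 6. Hes1 had -0.50 to 0.09 with the other 8. These are descriptions over 15 libraries that share age steps and retina content. Among 12938 genes with a mean of at least 1 RPKM, the most like Neurog2 were Foxn4, Fgf15 and Ptf1a (r = 0.995 each), the most like Hes5 were Rcor2 (0.996), Fgf15 and Kif19a, and the most like Hes6 were Kif19a (0.995), Dll3 and Rcor2. Atoh7 was closest to Neurog1 (0.989), Frat2 and Sox8, Dll1 to Spef1 (0.991) and Ptf1a, and Olig2 to Vash1 (0.992), Rem2 and Btbd17. Neurod1 was closest to Otx2 (0.988), Myt1 and Cecr2, and Neurod4 to Fgf9 (0.969), Arntl and Tdrkh. Hes1 had no comparably close gene, with Wnt10a at 0.865 followed by Bcat2 and Tlcd1.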

How the data were processed

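Poly(A)+ RNA was sequenced on the Illumina HiSeq after adaptor ligation to double-stranded cDNA, per the labels' protocols, which does not keep the strand. The labels describe both fixation and storage in RNAlater, and which applied to sequenced eyes is not clear. The submitters' processing notes name CASAVA 1.8, Bowtie 0.12.9, TopHat2 2.0.11, SAMtools and mouse build mm8. Annotation release and counting tool are not given in the sources used here. The deposited tables hold, per the file headers, the authors' raw read counts for 24373 RefSeq transcripts and their RPKM, from which the library totals were recovered. The row with the highest mean count stood for each symbol. Counts were tested in R 4.3.3 with edgeR 4.0.16 (TMM, filterByExpr, quasi-likelihood test, Benjamini-Hochberg over all genes, threshold 0.05), and with DESeq2 1.42.0 as an alternative. The SE is the log2 fold change over the square root of F. Newborn and adult libraries shared 1 fit; the fit of single day 3 eyes held the mouse as a block; summed eyes of each mouse entered the genotype and age fits. Lone samples were assumed to vary like the other groups. The scripts were tested on simulated counts. The members and 17 lists of 136 genes were chosen with earlier results of these data known; Neurl1 and Tfap2b were not matched, and results of some genes are not reported here. Named were all members, up to 4 genes of a list by smallest p, and up to 3 of the most correlated genes (log2 CPM + 1). Other genes (Olig1, Mog, Tcf4, Rcvrn and Otx2 where outside that rule) were chosen after their values were seen. Alternatives were other scalings, filters, tools, transcript rows, blocks and left-out samples.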

Additional observations from a re-analysis of the deposited data

Results flagged for a closer look

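For Neurog2, a proneural factor, the effect of the genotype label passed the test of a difference between ages, at 2.85 on the log2 scale for adult minus newborn (edgeR adjusted p = 0.0307). The adult effect rests on 1 wild-type library, whose spread could not be measured and was assumed to be like that of the other groups. Wild-type against labelled-knockout levels were 49.0 and 53.1 against 9.36 and 8.99 RPKM in newborns, and 0.58 against 0.79 and 0.67 RPKM in adults. For Hes6 the difference was 2.01 (edgeR adjusted p = 0.0489), with 466 and 483 against 91.2 and 131 RPKM in newborns and 23.9 against 22.9 and 21.2 RPKM in adults. Neither gene passed this test when a newborn wild-type library was left out, a fit in which 1 library stood for that group. With the replicate number as a block 0 members passed, and with DESeq2 5 did. Scaled to Rax and Six6, neither passed: the Neurog2 difference was 0.40 (edgeR adjusted p = 0.63) and the Hes6 difference -0.35 (edgeR adjusted p = 0.659), while Dll1, Hes1 and Olig2 passed in the negative direction.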

How the results depend on the processing

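Among values that passed the test in either fit, only the scaling to Rax and Six6 reversed a direction; members that passed in neither changed sign under several other settings. In newborn labelled knockouts it gave Atoh7 0.25, Neurog2 0.04, Hes5 0.33, Hes6 0.36, Dll1 1.67 and Olig2 0.71. For the genotype difference between ages it gave Hes6 -0.35 and Dll1 -1.85. For day 3 against newborn it gave Neurod4 -1.61, Hes5 -0.64, Hes6 -0.83, Dll1 -1.35 and Olig2 -0.28. For adult against newborn it gave Neurod1 0.81 and Hes1 0.71, and for adult against day 3 Neurod1 1.64 and Neurod4 2.16. The count of members passing was then 2 (newborn), 1 (adult genotype) and 2 (day 3 against newborn), and that of genes 14666 for newborns (4226 with TMM), 147 for adults (0), 12903 for the difference between ages (492), 0 for eyelids (81) and 14606 for day 3 against newborn (3207). Its calls for adult against newborn were 8847 higher and 1273 lower, and for adult against day 3 10292 and 304. DESeq2 called 102 genes for adults, 2131 for the difference, 368 for eyelids, 94 for labelled knockout against heterozygous (0 with edgeR) and 4910 for day 3 against newborn, with 1 member for adults and 5 for the difference. The authors' totals gave 33 genes for adults and 1 member for the difference, and moved the split of calls to 2751 higher and 1084 lower in newborns (2576 and 1650 with TMM), 806 and 1640 for day 3 against newborn (2003 and 1204), and 5453 and 3237 for adult against day 3 (4385 and 4625). No filter gave 13 genes for adults, and a mean of at least 5 RPKM 5839 for adult against day 3 (9010). Wild types alone gave 5734 genes for adult against newborn. For eyelids, mice with 1 open and 1 closed eye gave 210 genes, no mouse block 29, and leaving out the left eye of E32 151. Closed eyes only gave 6938 genes for day 3 against newborn, and the heterozygous mouse against newborn wild types 822 genes and 0 members.

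Leaving out each library or mouse in turn gave 0 to 5116 genes and 0 to 8 members for newborns, 0 to 205 genes for adults, 0 to 1613 genes and 0 to 5 members for the difference, 7453 to 8468 genes for adult against newborn, 0 to 129 for eyelids, 0 to 6 for labelled knockout against heterozygous, 0 to 6149 genes and 0 to 7 members for day 3 against newborn, and 6240 to 9750 genes for adult against day 3. In adult against newborn and adult against day 3, 6 or 7 members passed in each of these. The replicate block gave 7 members for newborns, with Dll1 lost, and 0 genes and 0 members for the difference. The labels name no pairing, and the differences between replicates correlated at 0.193 (newborn wild type and labelled knockout), 0.001 and 0.088 over 17592 genes. The cause of these changes was not tested. Few reads limit adult Atoh7 and Olig2.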
